A study of Bos taurus with 11 samples.

Results

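RXRG and CYP26B1 are 2 genes of retinoid signalling, and their mRNA was described in the liver of dairy cows in mild (MNEB) or severe (SNEB) negative energy balance. RXRG encodes retinoid X receptor gamma, and CYP26B1 encodes an enzyme that hydroxylates retinoic acid. They are 2 of the 21996 Ensembl genes listed in the count files. RXRG was taken by its Ensembl identifier (ENSBTAG00000016801) and CYP26B1 (ENSBTAG00000012212) by its symbol in a list of gene names that came with the study. Both were picked with their difference between the groups known. Their levels in the groups are therefore given as a description, without a test.

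The cows were multiparous Holstein-Friesians in early lactation, about 14 days after calving by the sample labels, and their energy balance was driven apart by feeding and milking. The 5 MNEB cows were fed *ad libitum* and milked once a day, while the 6 SNEB cows received a restricted diet and were milked more often, so the effects of diet and of milking frequency cannot be told apart. The animals had been selected from larger groups as extremes of energy balance. PolyA RNA from a piece of frozen liver was sequenced as single reads on 19 lanes of 3 flow cells (A, B and C), and the lanes of each cow were summed. The reads counted on genes numbered from 1774011 to 4005322 in MNEB cows and from 1869837 to 6852142 in SNEB cows. Levels are given as CPM, the reads of a gene relative to all reads of the library, after TMM scaling, a correction for differences in library composition. Gene lengths were not used, so a CPM value of one gene cannot be set against that of another.

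Retinoid X receptors are nuclear receptors that bind DNA as heterodimers with retinoic acid receptors, PPARs, LXRs and other partners, and thereby act on genes of fatty acid, cholesterol and bile acid metabolism. Retinoic acid is the ligand of the retinoic acid receptors, and the CYP26 enzymes clear it by hydroxylation. The liver is the main store of retinoids, which its stellate cells hold as retinyl esters. In whole liver, a change in the number of cells of one type and a change in the RNA of each cell cannot be told apart.

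Every SNEB cow had more RXRG mRNA than any MNEB cow. The receptor stood at 32.9, 78.5, 24.8, 71.9 and 41.7 CPM in MNEB1 to MNEB5, from 42 to 241 reads. In SNEB1 to SNEB6 it stood at 139, 168, 176, 96.9, 138 and 125 CPM, from 329 to 672 reads. MNEB2 and MNEB4 were the highest of the MNEB cows and SNEB4 was the lowest of the SNEB cows. The mean was 49.95 ± 23.9 CPM (SD, n = 5) in MNEB and 141 ± 29.0 CPM (SD, n = 6) in SNEB, a ratio of 2.81, and the fitted log2 fold change was 1.49 (SE 0.27). Groups that do not overlap, with SNEB higher, were found in 0.766% of the 13960 genes tested. A larger log2 fold change than that of RXRG was found in 156 tested genes.

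Relative to its mean, RXRG varied more among MNEB cows than among SNEB cows, while its SD in CPM was 23.9 in MNEB and 29.0 in SNEB. The coefficient of variation was 47.9% in MNEB and 20.7% in SNEB, and the highest MNEB cow had 3.16 times the level of the lowest, against 1.82 times in SNEB. Counting noise made up 3.34% of the variance of the MNEB cows and 5.49% of that of the SNEB cows, so nearly all of this spread lay between animals or their libraries. The edgeR estimate of the biological coefficient of variation was 0.300 for RXRG, where the trend for genes of its abundance was 0.211. The groups came closest at MNEB2 and SNEB4, whose levels differed 1.24-fold. The exact Poisson 95% intervals of these cows, 66.4 to 92.0 and 89.7 to 105 CPM, overlapped. These intervals cover counting error only.

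CYP26B1 was scarce in MNEB cows and higher in every SNEB cow. The hydroxylase stood at 5.64, 1.56, 2.96, 2.39 and 2.27 CPM in MNEB1 to MNEB5, which rested on 23, 3, 5, 8 and 9 reads. In SNEB1 to SNEB6 it stood at 8.40, 28.8, 12.9, 21.35, 31.9 and 9.64 CPM, from 24 to 148 reads. MNEB1 was the highest MNEB cow. Among the SNEB cows, SNEB2, SNEB4 and SNEB5 were high, while SNEB1, SNEB3 and SNEB6 were nearer to MNEB1. The mean was 2.96 ± 1.58 CPM (SD, n = 5) against 18.8 ± 10.1 CPM (SD, n = 6), a ratio of 6.36, with a fitted log2 fold change of 2.60 (SE 0.44). A larger log2 fold change was found in 35 tested genes.

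CYP26B1 had a coefficient of variation of 53.2% in MNEB and 53.4% in SNEB. The MNEB value rested on MNEB1, without which it was 25.0%, and on log2 CPM the SD was 0.57 in MNEB and 0.79 in SNEB. Counting noise amounted to 42.0% of the variance among MNEB cows, where no animal had more than 23 reads, and to 5.62% among SNEB cows. The biological coefficient of variation was estimated at 0.439, against a trend of 0.321. The lowest SNEB cow, SNEB1, lay 1.49-fold above the highest MNEB cow, MNEB1, and their intervals of 5.91 to 11.6 and 3.57 to 8.46 CPM overlapped. The counts were made after reads at the same genome position had been reduced to 1, which sets a ceiling on the count of an abundant mRNA.

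**Figure D1:**
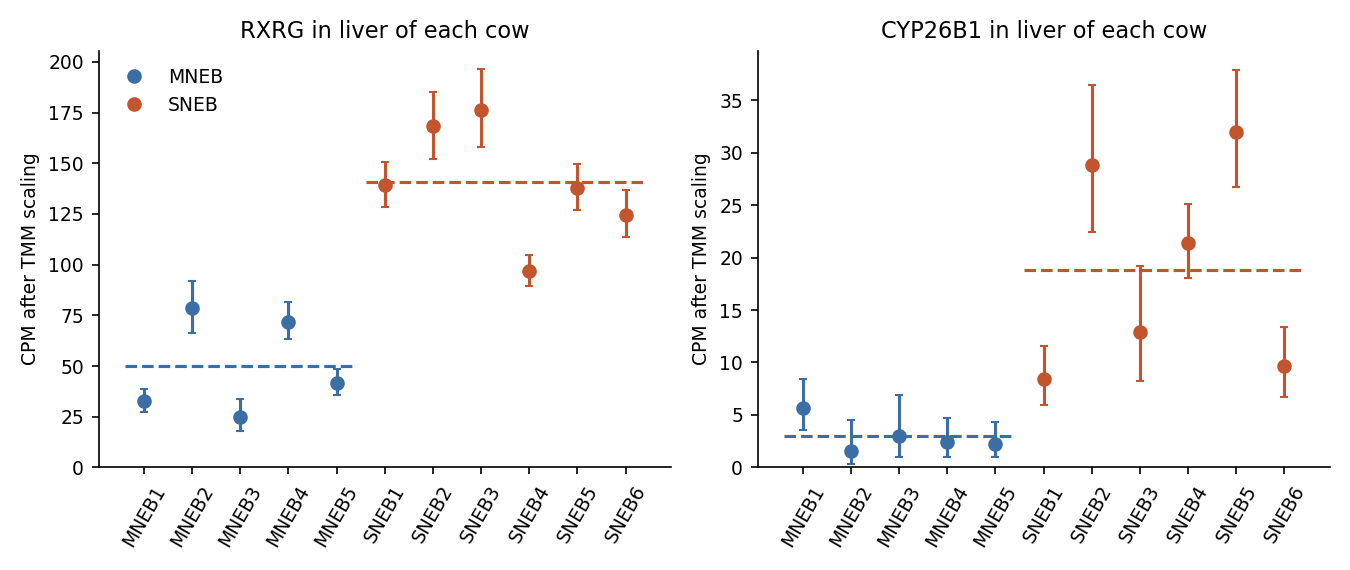
CPM after TMM scaling of RXRG (left) and CYP26B1 (right) in each of the 5 MNEB (blue) and 6 SNEB (orange) cows, with exact Poisson 95% intervals of the read count as bars and group means as dashed lines. For RXRG the MNEB cows reach 78.5 CPM and the SNEB cows start at 96.9, and for CYP26B1 these values are 5.64 and 8.40.

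Set against each other within a cow, the hydroxylase and the receptor varied widely in proportion. For each 100 RXRG reads, MNEB1 to MNEB5 had 17.2, 1.99, 11.9, 3.32 and 5.45 CYP26B1 reads. SNEB1 to SNEB6 had 6.03, 17.1, 7.29, 22.0, 23.2 and 7.73. MNEB cows averaged 7.97 ± 6.40 (SD, n = 5) and SNEB cows 13.9 ± 7.83 (SD, n = 6), and the groups overlapped, since MNEB1 and MNEB3 lay above SNEB1, SNEB3 and SNEB6. The ratio of a cow does not depend on the scaling of its library. Its exact Clopper-Pearson 95% interval ran from 0.405 to 5.92 in MNEB2 and from 3.68 to 30.0 in MNEB3, with 3 and 5 CYP26B1 reads, and from 18.3 to 26.4 in SNEB4, with 148.

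**Figure D2:**
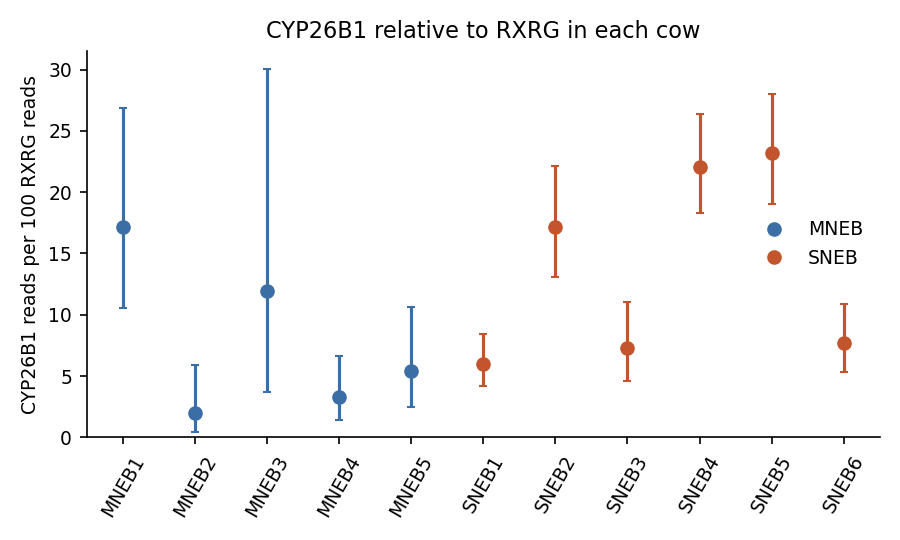
CYP26B1 reads per 100 RXRG reads in each MNEB (blue) and SNEB (orange) cow, with 95% intervals that cover counting error only. SNEB2, SNEB4 and SNEB5 lie between 17.1 and 23.2, SNEB1, SNEB3 and SNEB6 between 6.03 and 7.73, and the MNEB cows from 1.99 to 17.2.

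The lanes of a library show how well a level was repeated. Of the 11 libraries, 7 were run on more than 1 lane. Within a library, the highest lane had 1.01 to 1.28 times the RXRG level of the lowest (median 1.05), on the scale of CPM of the lane without TMM scaling. For CYP26B1 this was 1.05 to 2.16 times (median 1.53), and the Poisson intervals of the lanes of a library overlapped in all 7 libraries for each gene. The widest RXRG gap was in SNEB4, whose 3 lanes on flow cell A had 109.8, 98.4 and 85.7 CPM. Lane by lane, RXRG lay between 23.7 and 75.7 CPM in MNEB and between 85.7 and 176 in SNEB, without overlap. CYP26B1 did overlap at this level, with 6.49 in the lane of MNEB1 on flow cell C against 5.47 and 6.03 in the lanes of SNEB1 and SNEB6 on flow cell B. These lanes held 13 reads of CYP26B1 in MNEB1, 11 in SNEB1 and 10 in SNEB6. Within a flow cell the lane values of the groups did not overlap, but on B and C the Poisson intervals of the closest CYP26B1 lanes did. On B these were 2.40 to 9.19 CPM in MNEB1, from 10 reads, and 2.73 to 9.79 CPM in SNEB1. On C they were 3.46 to 11.1 CPM in MNEB1 and 7.74 to 17.4 CPM in SNEB1. The highest MNEB and the lowest SNEB lane had 2.46 and 17.8 CPM on flow cell A, 4.99 and 5.47 on B, and 6.49 and 11.8 on C. In 5 of the 5 libraries run on both B and C, CYP26B1 was higher in the lane on C, while RXRG was higher there in 2 of 5. Overlap of the intervals within single libraries does not show that the flow cells gave equal levels of CYP26B1. MNEB2 and SNEB2 were run on C alone, and MNEB3 and SNEB3 on B alone.

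**Figure D3:**
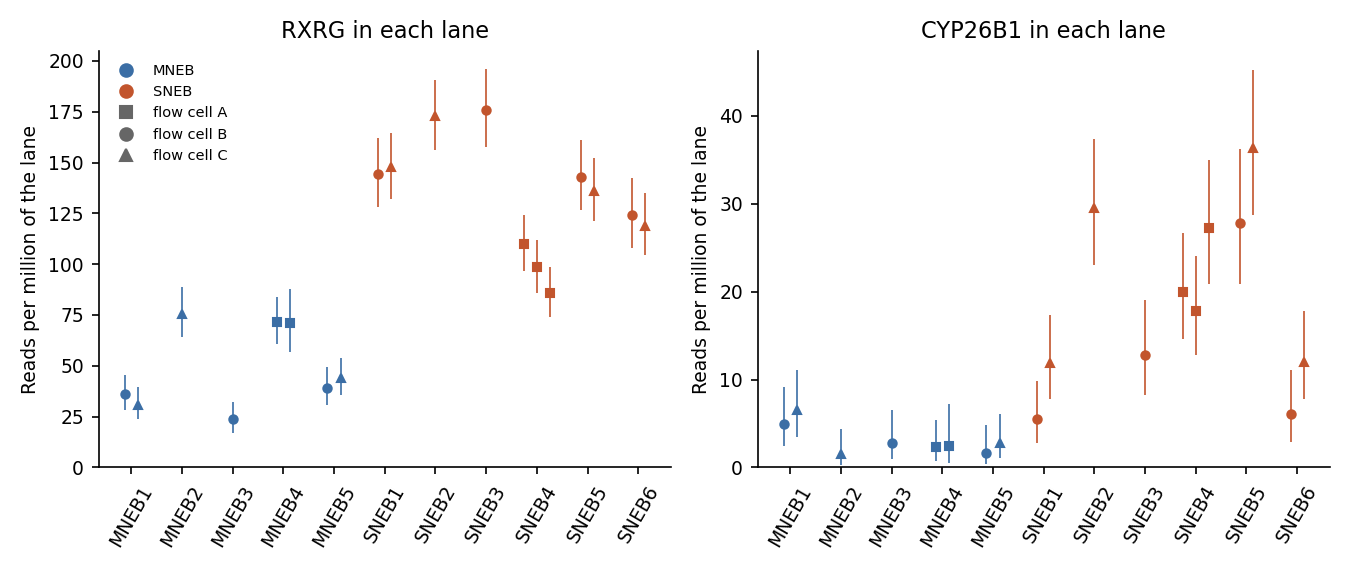
CPM of the lane for RXRG (left) and CYP26B1 (right) in each of the 19 lanes, placed by cow, with the flow cell as the marker shape, the group as the colour and exact Poisson 95% intervals as bars. Lanes of one library lie close together for RXRG, and for CYP26B1 the lanes of SNEB1 and SNEB6 differ by up to 2.16 times.

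The size of the difference varied between sets of flow cells, while its direction within each set was fixed by groups that do not overlap. On flow cell A, which held 1 cow of each group, the SNEB level over the MNEB level was 1.35 for RXRG and 8.94 for CYP26B1. The same ratios were 7.11 and 4.36 for the pair run on flow cell B alone, and 2.14 and 18.5 for the pair run on flow cell C alone. Among cows run on both B and C (2 MNEB and 3 SNEB), they were 3.59 and 4.21. The ratio of 18.5 rested on 3 CYP26B1 reads in MNEB2. Restricted to the lanes of flow cell B, the log2 fold change was 2.14 for RXRG and 2.0 for CYP26B1, but those lanes hold neither MNEB2 nor MNEB4, which had the highest RXRG of the MNEB cows. Restricted to the lanes of flow cell C, the values were 1.48 and 2.60.

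Within the SNEB group, no relation between the receptor and the hydroxylase passed the test. RXRG and CYP26B1 gave r = 0.00819 and rho = -0.0286 on log2 CPM (n = 6, two-sided exact permutation p = 0.982 and 1). Without SNEB3 and SNEB4, the cows farthest from the median of RXRG, r was 0.594 over 4 cows, so the value turned on those animals. It was the first of 3 relations computed, and after Benjamini-Hochberg adjustment over them the exact permutation p-values were 0.982 and 1. The groups lay apart in both genes, so no r of the levels over the 11 cows together is given. On deviations from the group means over the 11 cows, r was -0.320, which is given without a test. No correlation was computed within the 5 MNEB cows alone.

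RXRG was lower in the SNEB cows with more reads. Its log2 CPM and the log2 of the total reads of a cow gave r = -0.949 (n = 6, two-sided exact permutation p = 0.0125, adjusted 0.0375) and rho = -0.771 (exact permutation p = 0.103, adjusted 0.308). Without SNEB3 and SNEB4, r was -0.823 over 4 cows, and the relation no longer passed without SNEB2 (exact permutation p = 0.1), SNEB3 (0.1) or SNEB4 (0.075). An r this low was found for 9 of the 9020 genes with a mean of at least 50 reads, or 0.0998%. Total reads were larger with more lanes, from 1 lane in SNEB2 and SNEB3 to 3 in SNEB4. With 1 lane per cow, set against the reads of that lane, r was -0.0763 (exact permutation p = 0.868). Against the total of all lanes of the cow, RXRG of the single lane gave r = -0.963 (exact permutation p = 0.00694). A flow cell set held at most 3 SNEB cows, too few for a value within it. CYP26B1 and total reads gave r = 0.0439 and rho = -0.0857 (exact permutation p = 0.936 and 0.919, adjusted 0.982 and 1).

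**Figure D4:**
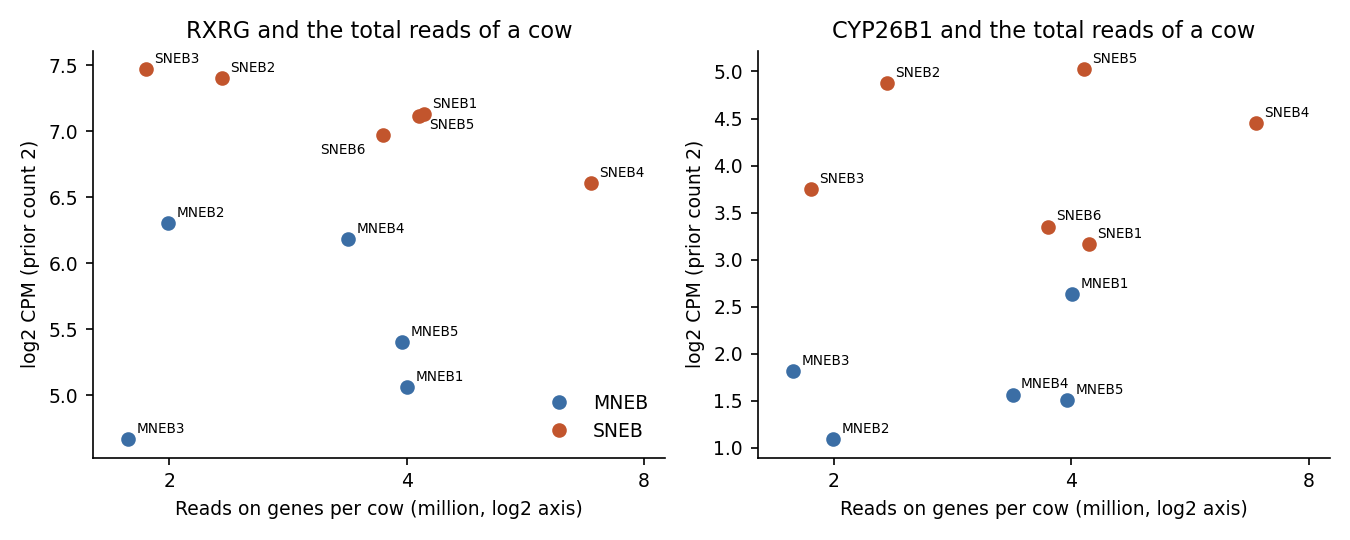
Log2 CPM (with a prior count of 2) of RXRG (left) and CYP26B1 (right) against the reads counted on genes in each cow, on a log2 axis, with MNEB cows in blue and SNEB cows in orange. Among the SNEB cows RXRG is highest in SNEB3 and SNEB2 and lowest in SNEB4, the cow with the most reads, while CYP26B1 follows no such order.

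Likeness of pattern was measured as Pearson's r of log2 CPM over the 11 cows, among the 9020 genes with a mean of at least 50 reads, and is given without a test because the group difference enters it. The genes most like RXRG were BCL2L2 (r = 0.963), ENSBTAG00000027453 (0.930), CREB3L3 (0.920), PLIN2 (0.909) and P2RX4 (0.903). BCL2L2 encodes an anti-apoptotic protein of the BCL2 family, CREB3L3 a transcription factor of hepatocytes, PLIN2 a coat protein of lipid droplets and P2RX4 an ATP-gated ion channel. BCL2L2 had 86.9 ± 18.1 CPM (SD, n = 5) in MNEB and 143 ± 21.7 CPM (SD, n = 6) in SNEB. As with RXRG, MNEB2 and MNEB4 were its highest MNEB cows, at 115 and 91.0 CPM, and SNEB4 its lowest SNEB cow, at 117 CPM. In the 6 SNEB cows its r with log2 total reads was -0.989 (rho = -0.943), beside -0.949 for RXRG, and for the other 4 genes r lay between -0.633 and -0.353. The value of BCL2L2 is no separate result, since the gene was chosen for its likeness to RXRG in the same cows. On deviations from the group means its r with RXRG was 0.865. For the other 4 genes this r was 0.812, 0.738, 0.739 and 0.567. The r values on deviations follow in part from choosing the genes by their r in the same cows.

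The genes most like CYP26B1 were RAB30 (r = 0.957), the gene named A6H7E7_BOVIN (0.939), NR4A1 (0.932), UHRF1BP1 (0.928) and SLC25A30 (0.926). None of these was among the 5 for RXRG, but lists of 5 from 9020 genes are too short to tell the 2 patterns apart. RAB30 encodes a small GTPase of the Golgi, NR4A1 an orphan nuclear receptor that can pair with retinoid X receptors, and SLC25A30 a mitochondrial carrier. RAB30 had 30.1 ± 9.38 CPM (SD, n = 5) in MNEB and 81.1 ± 17.7 CPM (SD, n = 6) in SNEB. Its highest SNEB cows were SNEB4, SNEB5 and SNEB2, at 102, 99.4 and 86.0 CPM, the same 3 as for CYP26B1, to which RAB30 was chosen as most alike, and SNEB2 lay within counting error of SNEB6. On deviations from the group means, r with CYP26B1 was 0.794 for RAB30 and 0.806 for NR4A1, and between 0.670 and 0.756 for the other 3 genes. As for RXRG, these values follow in part from the choice of the genes in the same cows.

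The surroundings of both genes in the pathway could be followed only in part. Of 117 symbols on 11 lists of retinoid metabolism, retinoid receptors, their partners, coregulators and targets, 15 had an identifier. The names came from the study's own list of genes called different between these same groups, so the counts, size and direction of their differences follow from that choice and are no independent evidence. They are given as a description. The other RXR isotypes (RXRA and RXRB), the retinoic acid receptors, CYP26A1 and CYP26C1 were without an identifier, as were all listed retinol oxidoreductases, retinal dehydrogenases and retinoic acid responsive genes. They were not analysed here. Besides RXRG and CYP26B1, 13 list genes were tested. By the quasi-likelihood test of edgeR, adjusted over all genes tested (Benjamini-Hochberg), 2 rose, 2 fell and 9 did not pass at an adjusted p under 0.1. Over all genes, 0.544% passed, 0.330% higher and 0.215% lower in SNEB. The median log2 fold change was 0.60 for the 13 genes and -0.01 for all genes tested, and in 4 of the 13 the groups did not overlap, as in 1.30% of all genes (0.766% higher and 0.537% lower).

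Of the 6 PPAR and RXR target genes with an identifier, FGF21 and ANGPTL4 rose and 4 did not pass. FGF21, a hormone that the liver releases in fasting, had 92.9, 51.4, 63.3, 40.6 and 87.4 CPM in MNEB1 to MNEB5. In SNEB cows it ranged from 136 to 190 CPM (median 174), above every MNEB cow, and the log2 fold change was 1.31, with SE 0.20 (edgeR adjusted p = 0.00953). ANGPTL4, an inhibitor of lipoprotein lipase, had 208, 394, 91.0, 170 and 154 CPM in MNEB1 to MNEB5. In SNEB cows it ranged from 437 to 638 CPM (median 529), and the log2 fold change was 1.38, with SE 0.27 (edgeR adjusted p = 0.0456). MNEB2 was the highest MNEB cow for ANGPTL4, as it was for RXRG. ANGPTL4 did not pass when both cows of flow cell A were left out (edgeR adjusted p = 0.216), nor without MNEB4 (0.132), MNEB5 (0.147) or SNEB6 (0.107). Its log2 fold change in these fits was 1.32, 1.32, 1.29 and 1.32.

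Among the other 4, PLIN2 and CREB3L3 lay nearest to the limit. PLIN2 had 188 ± 71.1 CPM (SD, n = 5) in MNEB and 321 ± 45.7 CPM (SD, n = 6) in SNEB, which is 0.78 higher on the log2 scale (SE 0.20, edgeR adjusted p = 0.151). CREB3L3 had 439 ± 98.0 and 643 ± 53.3 CPM, which is 0.55 higher (SE 0.13, edgeR adjusted p = 0.105). In both genes MNEB2 was the one MNEB cow among the SNEB values, at 308 and 601 CPM. PDK4, a kinase that restrains pyruvate dehydrogenase, differed by 1.11 on the log2 scale (SE 0.35, edgeR adjusted p = 0.291). VNN1, a pantetheinase, differed by -0.81 (SE 0.39, edgeR adjusted p = 0.610). DESeq2 called PLIN2, CREB3L3 and PDK4, with adjusted p-values of 0.0246, 0.0130 and 0.0826, where it called 2.08% of all genes (1.26% higher and 0.817% lower).

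Of the 3 LXR and RXR target genes with an identifier, ABCG5 and ABCG8 fell. Their products form a dimeric transporter that moves cholesterol into bile. ABCG5 had 62.3, 56.6, 52.6, 38.8 and 36.4 CPM in MNEB1 to MNEB5. In SNEB cows it ranged from 11.8 to 23.6 CPM (median 21.0), below every MNEB cow, and the log2 fold change was -1.38, with SE 0.21 (edgeR adjusted p = 0.00953). ABCG8 was more uneven, with 108, 30.7, 51.4, 107 and 14.4 CPM in MNEB1 to MNEB5 and 4.09 to 15.6 CPM (median 14.0) in SNEB cows, so that MNEB5 lay within the SNEB range. It fell by 2.43 on the log2 scale (SE 0.48). Its edgeR adjusted p rose from 0.0456 to 0.262 when replicate number was a block, to 0.185 without the cows of flow cell A, and to 0.125 without MNEB4 or 0.122 without SNEB6. The log2 fold change of ABCG8 in these fits was -2.09, -2.26, -2.14 and -2.33. CYP7A1, the rate-limiting enzyme of bile acid synthesis, had 176 ± 146 CPM (SD, n = 5) in MNEB and 66.5 ± 47.9 CPM (SD, n = 6) in SNEB (log2 fold change -1.39, SE 0.62, edgeR adjusted p = 0.563).

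The lists closer to retinoid handling held 4 genes with an identifier, of which 0 passed in edgeR, 3 had an unadjusted p under 0.05 (as had 8.35% of all genes tested) and DESeq2 called 2, LRP2 (adjusted p = 0.0712) and NR4A1 (0.00886). For retinoid storage and transport, 2 of 27 symbols had one. LRP2, an endocytic receptor that takes up retinol-binding protein in the kidney, had 0 to 9 reads in MNEB and 6 to 60 reads in SNEB cows (log2 fold change 1.75, SE 0.52, edgeR adjusted p = 0.251). The groups of LRP2 did not overlap in CPM. RBP2, a cellular retinol-binding protein best known from the intestine, had 2 to 24 reads in MNEB and 0 to 11 in SNEB cows (log2 fold change -1.70, SE 0.66, edgeR adjusted p = 0.462). Both genes rested on few reads, and without MNEB2, the cow with 24 reads, the value of RBP2 was -0.95 (edgeR adjusted p = 0.703). Among the 13 listed RXR partners, NR4A1 alone had an identifier, with 18.1 ± 12.7 CPM (SD, n = 5) in MNEB and 52.3 ± 23.1 CPM (SD, n = 6) in SNEB (log2 fold change 1.48, SE 0.37, edgeR adjusted p = 0.157). Without MNEB1, which had 40.7 CPM, it differed by 2.04 on that scale (edgeR adjusted p = 0.0151). Of 14 coregulators, PPARGC1A had an identifier, and differed by 0.60 on the log2 scale (SE 0.30, edgeR adjusted p = 0.636). The value was 0.92 without MNEB3 (edgeR adjusted p = 0.286) and 0.37 without the cows of flow cell A (edgeR adjusted p = 0.997).

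**Figure D5:**
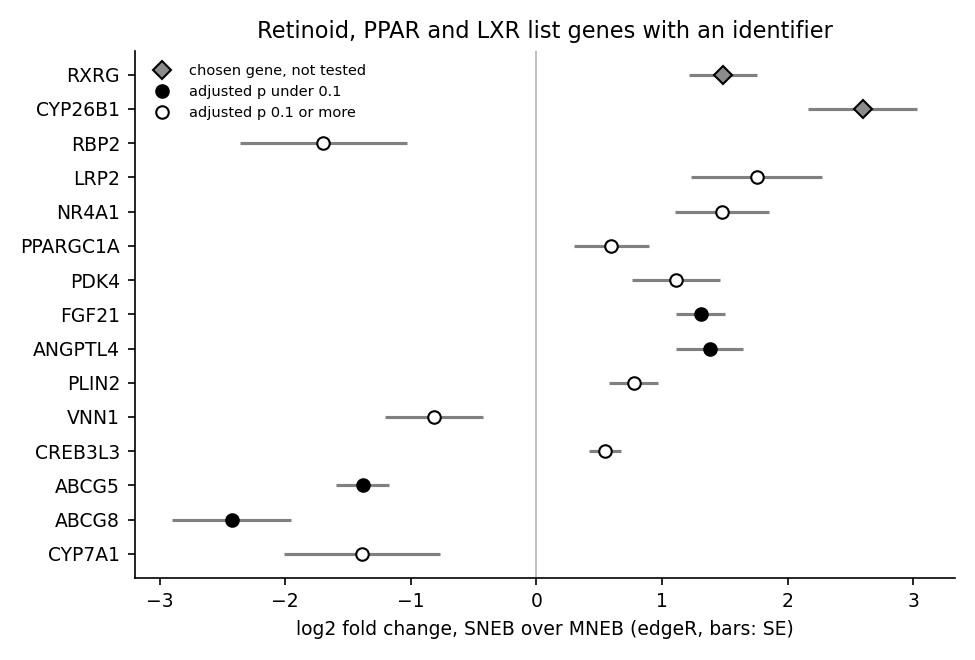
Log2 fold change of SNEB over MNEB cows with its standard error, from the edgeR fit, for the 15 list genes with an identifier. RXRG and CYP26B1 (grey diamonds) were not tested, filled circles mark the 4 genes with an adjusted p under 0.1 and open circles the 9 others, 8 of the 13 tested genes lying to the right of 0 and 5 to the left.

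The cell types of the tissue could be followed for few genes, named from the study's list of genes called different between these groups. Their differences follow from that choice and are no independent check of the cell types. Of 79 symbols on 10 lists of cell type markers, 4 had an identifier, and none of the 13 hepatocyte or 12 stellate cell markers was among them, so the liver label was not checked against its markers and the retinoid-storing cells were not followed. The Kupffer cell markers MARCO and TIMD4 (2 of 7 symbols) had 139 and 61.1 CPM in MNEB and 90.4 and 41.2 CPM in SNEB as means (log2 fold change -0.64 and -0.59, edgeR adjusted p = 0.712 and 0.532). The endothelial marker PLVAP (1 of 8) had 122 and 83.0 CPM (-0.56, edgeR adjusted p = 0.711). The leukocyte gene S100A12 (1 of 7) had 22.0 and 46.5 CPM (1.10, edgeR adjusted p = 0.320). The part of other cell types in the levels of RXRG and CYP26B1 was not tested.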

How the data were processed

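PolyA RNA from liver of 11 cows had been sequenced on 19 lanes. The values deposited by the authors were raw read counts per Ensembl gene and lane, without normalization. Reads were aligned to the BCM4 assembly with Bowtie, reads with more than 1 alignment were dropped, reads at the same position were reduced to 1, and the rest were counted with HTSeq in union mode. The submitters' processing notes also name CASAVA 1.4 and SAMtools. The strand setting is not given in the sources used here, so counts of overlapping genes are uncertain. A lane held 1221833 to 2334234 reads on genes, at which a gene near 1 CPM rests on a few reads.

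Groups and replicate numbers came from the sample titles. Lanes were summed per cow, and genes that reached 5 reads in any cow (13960, or 63.5%) entered the quasi-likelihood test of edgeR 4.0.16 (R 4.3.3), with TMM scaling and p-values adjusted by Benjamini-Hochberg. Genes were called at an adjusted p under 0.1. The fit was tested on simulated data. The alternatives were DESeq2 1.42.0, RLE size factors, looser and stricter filters, 1 lane per cow, a flow cell term, leaving out the cows of flow cell A, single flow cells, a replicate block and leaving out each cow. Log2 CPM used a prior count of 2. Correlations used exact permutations in SciPy 1.17.1 (Python 3.11.15), and plots were drawn with matplotlib 3.10.9.

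Named genes were RXRG and CYP26B1, list genes that were called or had the smallest p of their list, and the 5 genes most alike in pattern to each. The other list genes named were added after their values were seen, to complete the lists. The members and lists were chosen with earlier results of these data known. Symbols came from the name columns of the study's list of 413 genes, and its values were not used.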

Additional observations from a re-analysis of the deposited data

Results flagged for a closer look

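In 2 of 32 groups of cows examined, over the 15 list genes and the ratio of CYP26B1 to RXRG reads, a single cow stood far from the others, measured by its gap to the next cow over the range of the group. Chance gives about 1 in 20 groups. NR4A1 was at 40.7 CPM in MNEB1, and the next MNEB cow had 14.3 CPM. MNEB1 was also the highest MNEB cow for CYP26B1, where its distance was not as large. PPARGC1A was at 239 CPM in MNEB3, and the next MNEB cow had 117 CPM. MNEB3 was the lowest MNEB cow for RXRG. No cow stood apart in this way for RXRG, CYP26B1 or their ratio in either group.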

How the results depend on the processing

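RXRG and CYP26B1 were picked for their difference, so its sign under the alternatives is no sign of stability. Without 1 cow their log2 fold changes ranged from 1.33 to 1.69 for RXRG and from 2.38 to 3.02 for CYP26B1, and with the lanes of flow cell B only they were 2.14 and 2.0, against 1.48 and 2.60 with those of flow cell C. Over all genes tested, 76 were called, against 290 with DESeq2 and 34 without the cows of flow cell A. Without 1 cow the count ran from 40 to 125, with the larger shifts without MNEB1 (125), MNEB3 (50), MNEB5 (40) and SNEB3 (120). The causes were not tested. Of the 13 list genes, the 2 called higher became 7 with DESeq2, 4 with 1 lane per cow and 3 with a flow cell term. They became 1 without the cows of flow cell A and 1 to 4 without 1 cow. Over all genes tested, the 46 called higher became 176 with DESeq2, 55 with 1 lane per cow and 63 with a flow cell term. That count was 19 without the cows of flow cell A and 23 to 79 without 1 cow. The 2 list genes called lower became 1 without the cows of flow cell A, 1 with the replicate block and 1 to 2 without 1 cow. The 30 called lower over all genes became 15, 32 and 17 to 46 in these fits. FGF21 and ABCG5 were called in all 19 alternatives. Over all list genes and alternatives, 227 values were on the same side of the limit, 12 newly passed it, 8 no longer did and 0 changed sign. These genes were named from the study's own list of called genes, so their calls and signs are no sign of stability either.

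Cows of the same number showed no consistent likeness. The correlation of their deviations ran from -0.044 to 0.323, and 1 of 5 MNEB cows was closest to the SNEB cow of its number. With the replicate block 80 genes were called, and RXRG and CYP26B1 had log2 fold changes of 1.59 and 2.65. Same-numbered cows shared their flow cells. The study blocked its cows by parity, body condition and earlier milk yield before they were allocated. Whether the replicate numbers follow those blocks is not given in the labels.

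Within SNEB cows, r of RXRG with CYP26B1 ran from -0.262 to 0.308 without 1 cow, and was below 0 without SNEB2 (-0.262) and SNEB6 (-0.114). The relation of RXRG to total reads, whose alternatives were chosen after seeing the data, ran from -0.970 to -0.907 without 1 cow, and its exact permutation p was then above 0.05 without SNEB2, SNEB3 or SNEB4. With 1 lane per cow, against the reads of that lane, r was -0.0763 (exact permutation p = 0.868).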

Other observations

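The SNEB cows with the most CYP26B1 recurred in other list genes. SNEB2, SNEB4 and SNEB5 were the highest 3 of the 6 SNEB cows for CYP26B1, and also for NR4A1, PDK4, PPARGC1A and ABCG8, or 4 of the 13 list genes. The Poisson intervals of the third and the fourth highest cow overlapped for CYP26B1, NR4A1 and ABCG8, and did not for PDK4 and PPARGC1A. ABCG8 was lower in SNEB than in MNEB on average, unlike CYP26B1, and NR4A1 was among the genes chosen as most like CYP26B1. The same 3 cows were the highest in 4.76% of the 9020 genes with a mean of at least 50 reads. PPARGC1A, a coactivator of nuclear receptors in gluconeogenesis, had 209, 275 and 301 CPM in these cows, and 125, 133 and 127 CPM in SNEB1, SNEB3 and SNEB6. PDK4 had 267, 243 and 283 CPM, against 184, 71.9 and 179 CPM. For RXRG the highest 3 were SNEB1, SNEB2 and SNEB3, where SNEB1 and SNEB5 lay within counting error of each other, a set it shared with FGF21 alone among the list genes and with 3.89% of the 9020 genes. These orders were noticed after the values were seen and were not tested.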
